A study of Mus musculus with 4 samples.

Results

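The nucleosome remodelling and deacetylase complex (NuRD) was followed at the transcript level in mouse embryonic stem cells lacking Suz12. The members were the genes of 10 subunits, Hdac1, Hdac2, Mta1, Mta2, Mta3, Mbd3, Chd4, Gatad2a, Rbbp4 and Rbbp7. They were represented by all probe sets whose only gene symbol in the platform annotation was one of these names, which gave 25 of the 45101 probe sets on the array. Affymetrix expression arrays, on which a probe set is a group of short probes against the same transcript, were hybridised with biotin-labelled RNA of embryonic stem cells. There were 2 arrays of Suz12KO cells and 2 of WT cells, both labelled as embryonic stem cells and differing in the labels by genotype alone. Suz12 belongs to the core of PRC2, the Polycomb complex that methylates histone H3. RNA of several clones per genotype was mixed in equal amounts before labelling, so an array reads a pool, and whether the arrays of a genotype carry separate pools is not stated in the labels. The p-values below therefore measure spread between arrays that may be technical.

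NuRD couples an ATP-driven chromatin remodeller of the CHD family to the histone deacetylases Hdac1 and Hdac2. The MTA proteins scaffold the deacetylases, Mbd3 or its paralog Mbd2 joins this core to the remodeller through a GATAD2 protein, and Rbbp4 and Rbbp7 bind histones. In mouse embryonic stem cells, the Mbd3 form of the complex is known for holding down pluripotency genes and for being needed to leave the pluripotent state. Rbbp4 and Rbbp7 are also subunits of PRC2, where they contact Suz12.

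Suz12 itself was read first as a check of the labels. Its brightest probe set gave a signal of 217 and 369 in the Suz12KO arrays, against 1097 and 1094 in the WT arrays, a log2 fold change of -1.89 (limma with Benjamini-Hochberg adjustment, adjusted p = 0.0021). The change was -1.67 with averaged Suz12 probe sets, which did not pass (adjusted p = 0.0602), and -3.07 on the brightest Suz12 probe set whose name carries no s, x or a suffix, the manufacturer's marks for probes that are not unique to a transcript (adjusted p = 0.0258). Signal is the deposited linear intensity, and log2 fold changes are differences of log2(signal + 16), Suz12KO minus WT, which understates the change of dim genes. Bacterial spike probe sets, which read low everywhere and were taken as a mark of background, reached at most 195 and 174 in the Suz12KO arrays and 141 and 191 in the WT arrays. Of the 10 markers of embryonic stem cells that were checked, 10 were higher in Suz12KO, with a summed signal of 123037 and 125990 in Suz12KO against 69290 and 68988 in WT. Of the 20 fibroblast markers, 14 were bright enough to be tested, 8 were lower and 1 was higher. Over all 12735 tested genes, 4.48% were called higher and 5.50% lower (limma, adjusted p under 0.05). The log2 fold changes of the 14 were negative for 11 and positive for 3. The summed signal of the 20 was 30032 and 29773 in Suz12KO against 87625 and 89324 in WT. This sum rested mainly on Acta2, Vim, Fn1 and Thbs1, with WT means of 33799, 26055, 12512 and 6694. No fibroblast marker read 0, but 7 and 8 of them lay at or under the highest spike in the Suz12KO arrays and 4 and 6 in the WT arrays. Dcn, Lum, Postn, Pdgfrb, S100a4 and Twist1 were too dim to be tested. The part of these cell markers in the results below was not tested, and in such bulk RNA fewer cells of a type and less RNA per cell cannot be told apart.

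With each gene represented by its brightest probe set, Mta3 and Hdac1 were higher in Suz12KO, by 1.97-fold and 1.21-fold, and the other 8 NuRD subunits did not pass the test. The log2 fold changes of those 8 lay between -0.21 and 0.14. All 10 were bright enough to be tested. The count of 2 higher among 10 stands beside 4.48% of all 12735 tested genes called higher, and the count of 0 lower beside 5.50% called lower (limma, adjusted p under 0.05). At an unadjusted p under 0.05 the members again had 2 higher and 0 lower, where 11.9% of all genes were higher and 11.4% lower. The median log2 fold change of the 10 subunits was 0.02, against 0.04 for all tested genes, and 5 subunits had positive and 5 negative values. Without Suz12KO replicate 2 the median of the subunits was -0.03. Both Suz12KO arrays lay on the same side of both WT arrays for 7 of the 10 subunits (3 higher, 4 lower), as they did for 52.9% of all tested genes (29.0% higher, 23.9% lower). All calls use a spread modelled as a function of signal, and when that trend was left out limma called 0 of all tested genes (smallest adjusted p 0.0999).

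**Figure D1:**
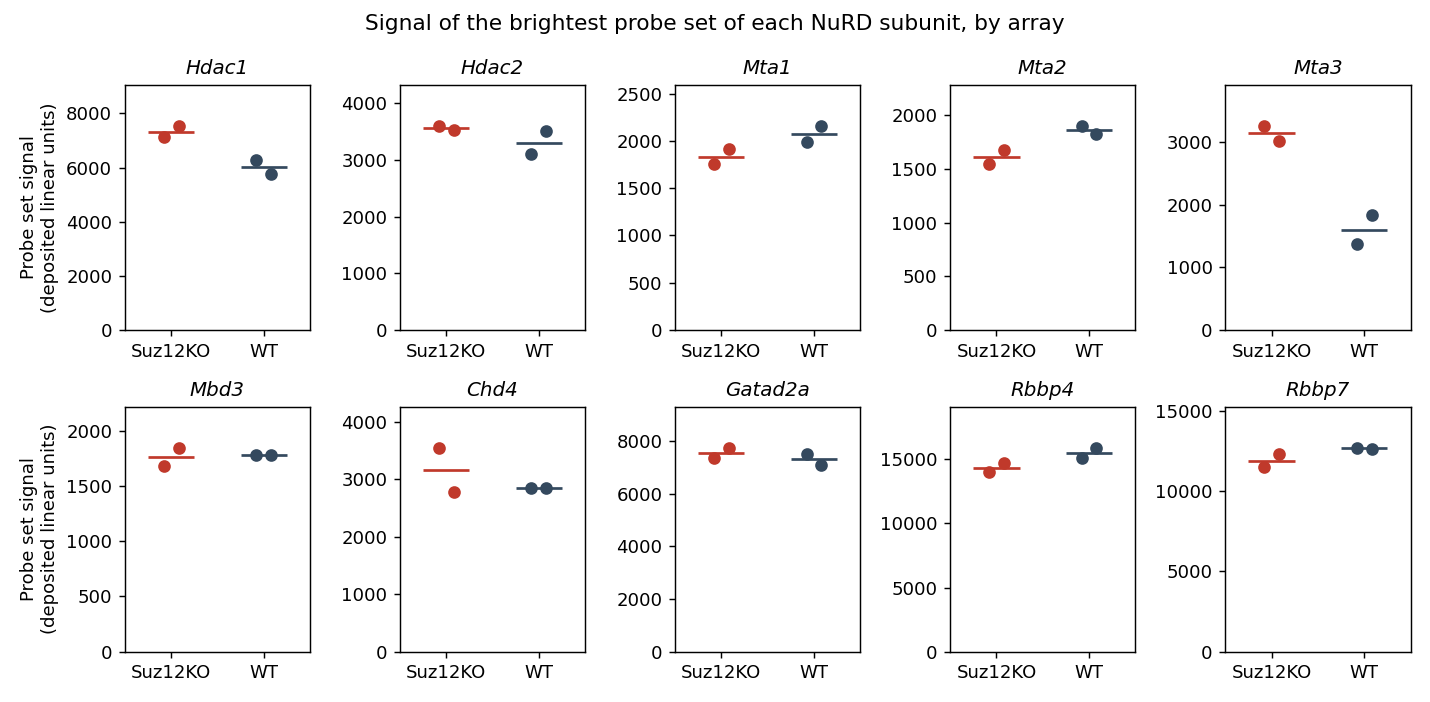
Probe set signal (deposited linear units, axis from 0) of the brightest probe set of each NuRD subunit, with Suz12KO arrays left and WT arrays right. Points are arrays and the bar is the mean of 2. Mta3 shows the widest gap between the genotypes, 3266 and 3027 in Suz12KO against 1370 and 1839 in WT, and the points of Mbd3, Chd4 and Gatad2a overlap.

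The MTA scaffolds are alternative subunits, of which a given NuRD complex carries one kind or another, and they did not move alike in these arrays. Mta3, studied in other cells as a hormone-responsive member of the family, had a signal of 3266 and 3027 in the Suz12KO arrays, against 1370 and 1839 in the WT arrays. Both Suz12KO values lay above both WT values, by more than the arrays of either genotype lay apart. The mean was 3147 ± 169 in Suz12KO and 1605 ± 332 in WT (SD, n = 2 each), which gave a log2 fold change of 0.98 (SE 0.14, 95% interval 0.66 to 1.29, limma adjusted p = 0.0021), or 1.97-fold.

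A second Mta3 probe set, 1421402_at, read 794 and 910 in Suz12KO against 497 and 476 in WT. Its groups did not overlap either, and it passed the test when every probe set was tested on its own (0.79, limma adjusted p = 0.0468). That call was lost whichever array was left out (adjusted p 0.0709 to 0.151), without the filter on dim probe sets (adjusted p = 0.0663) and after each array was centred on its own median (0.62, adjusted p = 0.108). The third Mta3 probe set, 1443350_at, read 444 and 280 in Suz12KO and 200 and 354 in WT, so its groups overlapped, and its log2 fold change of 0.39 did not pass (adjusted p = 0.652). The brightest Mta3 probe set carries an s suffix, the manufacturer's mark for probes shared by several transcripts, while the other Mta3 probe sets carry none. Averaging the Mta3 probe sets gave 0.72 and ended the gene's call (adjusted p = 0.0854). The call held without any 1 of the arrays.

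Mta1, a founding member of the family first described in metastatic tumour cells, had a signal of 1760 and 1909 in Suz12KO against 1984 and 2160 in WT. Mta2 had 1549 and 1675 in Suz12KO against 1902 and 1822 in WT. Both were lower in each Suz12KO array than in any WT array, but the 95% intervals of both differences included 0. The log2 fold change was -0.17 for Mta1 (95% interval -0.42 to 0.07, limma adjusted p = 0.380) and -0.21 for Mta2 (-0.46 to 0.04, adjusted p = 0.307), and neither passed. The lower ends of these intervals are 0.75-fold and 0.73-fold, so falls down to those values remain compatible with these arrays. The difference between the paralogs was not itself tested. A second Mta1 probe set, at 34.1 and 19.6 in Suz12KO and 24.0 and 29.95 in WT, was within the range of the spikes and was not tested.

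Hdac1, the deacetylase with a single probe set here, read 7112 and 7544 in Suz12KO against 6290 and 5779 in WT. The groups did not overlap, and the log2 fold change was 0.28 (SE 0.07, 95% interval 0.12 to 0.44, limma adjusted p = 0.0410). This call sat at the edge of the threshold. It was lost whichever array was left out (adjusted p 0.0531 to 0.237), without the filter on dim genes (0.0667), with averaged probe sets (0.0738) and when every probe set was tested on its own (0.0631). Under centring Hdac1 had a log2 fold change of 0.11 (adjusted p = 0.487).

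Hdac2, the paralog that shares the catalytic role, read 3605 and 3522 in Suz12KO against 3107 and 3511 in WT with its brightest probe set. The lower Suz12KO value and the higher WT value nearly met, and the log2 fold change of 0.11 did not pass (95% interval -0.09 to 0.31, adjusted p = 0.520) and was -0.06 after centring. Probe set 1449080_at of Hdac2 read 1743 and 1819 in Suz12KO and 1513 and 1868 in WT, with overlapping groups and a log2 fold change of 0.08 that was -0.07 without WT replicate 1. The remaining Hdac2 probe set, 1439704_at, scattered from 67.7 to 221 in Suz12KO and from 15.8 to 105 in WT, mostly within the range of the spikes, and was too dim to be tested.

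Mbd3, the methyl-binding-domain subunit that defines this form of NuRD, showed the smallest difference of the 10. Its signal was 1685 and 1847 in Suz12KO against 1780 and 1782 in WT, so the WT values fell between the Suz12KO values. The log2 fold change was -0.01 (95% interval -0.26 to 0.24, adjusted p = 0.963), and it was 0.03 under quantile normalization, -0.18 after centring and 0.05 without Suz12KO replicate 1. The interval runs from 0.83-fold to 1.18-fold, so a change within those limits remains compatible with these arrays.

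Gatad2a, which bridges the methyl-binding-domain protein and the remodeller, was also level. Its brightest probe set read 7359 and 7750 in Suz12KO against 7518 and 7096 in WT, a log2 fold change of 0.05 (95% interval -0.10 to 0.20, adjusted p = 0.726) that was -0.12 after centring. The other 4 Gatad2a probe sets had log2 fold changes of -0.09 to 0.25, and none passed. Among these, only 1455505_at had groups that did not overlap, at 558 and 599 in Suz12KO and 467 and 499 in WT.

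Chd4, the ATPase that remodels nucleosomes in NuRD, was read differently by its probe sets. The brightest, 1451295_a_at, gave 3556 and 2781 in Suz12KO against 2843 and 2854 in WT. Its Suz12KO values lay on both sides of the WT values, and the log2 fold change of 0.14 did not pass (95% interval -0.12 to 0.41, adjusted p = 0.520). It was -0.03 both after centring and without Suz12KO replicate 1. Probe set 1436343_at read 1149 and 1081 in Suz12KO against 1458 and 1455 in WT, without overlap, a log2 fold change of -0.38 (95% interval -0.67 to -0.09, adjusted p = 0.132).

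The third Chd4 probe set, 1438476_a_at, read 85.0 and 98.5 in Suz12KO, within the range of the spikes, against 628 and 249 in WT. Measured against the highest spike of each Suz12KO array, this was at least 2.15-fold lower, but the WT arrays lay 1.28 apart on the log2 scale and the probe set did not pass (adjusted p = 0.0714). The size of this difference turned on which WT array was kept. The log2 fold change of the probe set was -2.58 with WT replicate 2 dropped, but -1.30 with WT replicate 1 dropped. Dropping the Suz12KO arrays in turn, replicate 1 and then replicate 2, gave -1.85 and -2.03. After centring, both of these lower Chd4 probe sets passed (-0.55 and -2.11, adjusted p 0.0382 and 0.0411). Averaging the 3 probe sets gave a log2 fold change of -0.73 for Chd4 (adjusted p = 0.0722). The direction of Chd4 thus differed between its probe sets, and the sources used here do not say which transcripts each of them detects.

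**Figure D2:**
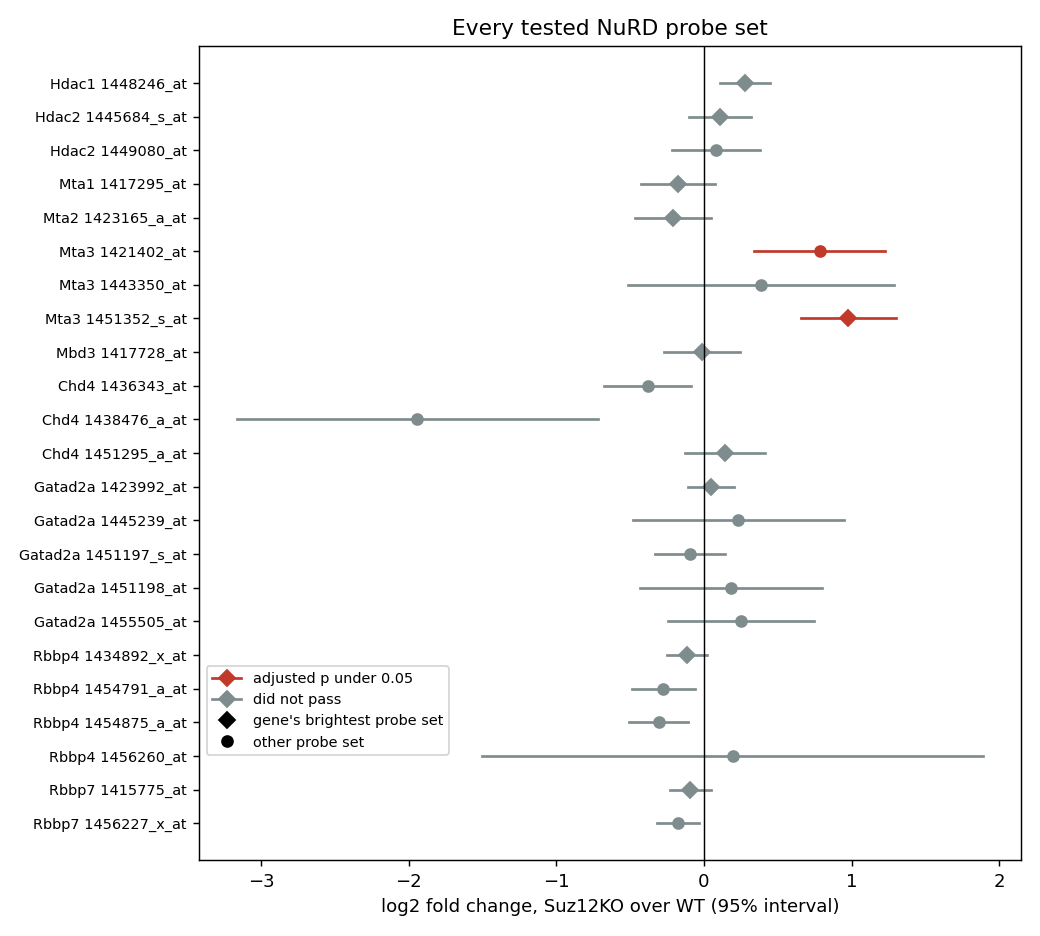
Log2 fold change of Suz12KO over WT with its 95% interval for each of the 23 tested NuRD probe sets, each fitted as its own feature. Diamonds are the brightest probe set of a gene and red marks an adjusted p under 0.05. The 2 red probe sets are both of Mta3, Hdac1 lies just short of the threshold (adjusted p = 0.0631), and the 3 Chd4 probe sets spread from -1.94 to 0.14.

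Rbbp4 and Rbbp7 are close paralogs with a WD-repeat fold that bind histone H4 and serve NuRD, PRC2, the Sin3 complex and chromatin assembly factors. Rbbp4 was brightest on 1434892_x_at, whose x suffix marks probes that may cross-hybridise, with 14027 and 14682 in Suz12KO against 15122 and 15920 in WT. Probe set 1454875_a_at read 4006 and 4583 in Suz12KO against 5153 and 5451 in WT, and 1454791_a_at read 3839 and 4522 in Suz12KO against 4894 and 5198 in WT. Each of these had both Suz12KO arrays below both WT arrays.

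The log2 fold change of Rbbp4 was -0.11 on the brightest probe set (95% interval -0.24 to 0.02, adjusted p = 0.275), and -0.31 and -0.27 on the others (adjusted p 0.0824 and 0.140), so none passed. Among the fits that leave out an array, 1454875_a_at passed without Suz12KO replicate 2 (-0.40, adjusted p = 0.0431). After centring, the brightest passed in the fit over genes (-0.28, adjusted p = 0.0461) and the others in the fit over probe sets (-0.47 and -0.44, adjusted p 0.0290 and 0.0474). A dim Rbbp4 probe set, 1456260_at, scattered from 81.2 to 352 in Suz12KO and from 89.3 to 243 in WT and carries little information.

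Rbbp7, which is X-linked in the mouse, read 11486 and 12291 in Suz12KO against 12702 and 12627 in WT on its brightest probe set, and 10935 and 11670 in Suz12KO against 12547 and 12930 in WT on 1456227_x_at. Both probe sets were lower in each Suz12KO array, by a small margin. Their log2 fold changes were -0.09 (95% interval -0.22 to 0.04, adjusted p = 0.392) and -0.17 (adjusted p = 0.158), and neither passed. The second passed after centring (-0.34, adjusted p = 0.0429).

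Promoter windows of 250 bases before to 50 bases after a RefSeq transcription start (GRCm38.p6) were found for 8 of the 10 subunits, in 10 windows, and not for Hdac1 and Mta3. Chd4 and Gatad2a each had more than 1 window, and those of Chd4 overlap, so the windows are not independent. All 10 windows held more CpG dinucleotides (17 to 50) than the median of 7 over 32851 windows of the same length. The GC box (GGGCGG, either strand) was present in 10 of 10 windows, against 35.7% of all windows, and the CCAAT box (CCAAT, either strand) in 6 of 10, against 37.4%. The letters of the ETS core (CCGGAA, either strand) occurred in 2 of the 10 windows, against 14.9%, the E-box CACGTG in 1, against 7.15%, and TATAAA on either strand in 1, against 13.6%. The windows used as background were not matched for CpG content, so the share with a GC box is not separate from the CpG counts above. These matches describe letters in short windows and say nothing of which factors bind. The windows of Rbbp4 (minus strand, chr4:129335321-129335620) and Rbbp7 (plus strand, chrX:162760122-162760421) are shown because these paralogs are the NuRD subunits that PRC2 shares and their bright probe sets all read lower in Suz12KO. Capitals mark GC boxes and CCAAT boxes, none of which overlap one another, and each sequence runs 5′ to 3′ on the strand of the gene.
Rbbp4: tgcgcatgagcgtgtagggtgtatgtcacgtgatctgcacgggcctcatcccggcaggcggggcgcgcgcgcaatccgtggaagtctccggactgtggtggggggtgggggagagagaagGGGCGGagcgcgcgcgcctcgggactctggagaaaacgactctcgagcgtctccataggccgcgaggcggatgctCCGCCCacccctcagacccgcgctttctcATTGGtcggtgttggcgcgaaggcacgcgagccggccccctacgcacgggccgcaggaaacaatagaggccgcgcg
Rbbp7: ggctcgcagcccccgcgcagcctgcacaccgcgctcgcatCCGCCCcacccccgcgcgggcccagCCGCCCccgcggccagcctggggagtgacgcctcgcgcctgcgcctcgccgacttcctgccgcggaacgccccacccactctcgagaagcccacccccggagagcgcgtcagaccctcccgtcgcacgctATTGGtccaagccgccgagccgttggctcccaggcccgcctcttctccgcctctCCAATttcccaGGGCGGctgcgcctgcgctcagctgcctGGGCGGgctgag
The Rbbp4 window held 39 CpG dinucleotides, 2 GC boxes and 1 CCAAT box, and the Rbbp7 window held 38, 4 and 2.

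Across all probe sets of the 10 subunits, 23 of 25 were bright enough to be tested one by one. Of these, 2 were higher, beside 2.82% of all 24461 tested probe sets, and 0 were lower, beside 3.99% (limma, adjusted p under 0.05). At an unadjusted p under 0.05, 5 were lower and 3 higher, where 10.3% of all probe sets were lower and 9.57% higher. The 5 lower ones belonged to Chd4, Rbbp4 and Rbbp7. Groups did not overlap for 14 of the 23, with 5 higher, beside 26.3% of all tested probe sets, and 9 lower, beside 23.7%. Probe sets of a gene share its transcripts and are not independent readings.

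Other subunits that can take the place of these members, and Cdk2ap1, a small NuRD component, did not pass the test. By limma 0 of 5 were higher, beside 4.48% of all genes, and 0 of 5 lower, beside 5.50%. At an unadjusted p under 0.05, 1 of the 5 was lower, beside 11.4% of all genes. With 5 genes, such counts are close to what these shares give. Mbd2, the alternative to Mbd3, read 751 and 709 in Suz12KO against 665 and 737 in WT, a log2 fold change of 0.06 that was -0.11 after centring. Gatad2b (-0.05) and the remodeller paralog Chd3 (-0.05) were likewise within the spread of the arrays, as was Chd5 (0.70), whose WT arrays read 322 and 127. Cdk2ap1 read 9293 and 9299 in Suz12KO against 10592 and 10436 in WT, without overlap, and its log2 fold change of -0.18 had an adjusted p of 0.0899. It passed after centring (-0.34, adjusted p = 0.0139) and with averaged probe sets (-0.26, adjusted p = 0.0340).

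Genes of proteins known to associate with NuRD in embryonic stem cells were higher in Suz12KO on their brightest probe sets, 4 of 4, beside 4.48% of all genes. Among them, Zmynd8 was called lower on another probe set, as given below. The list was chosen with earlier results of these data known, so this count is a description and no independent support. All 10 checked markers of embryonic stem cells were called higher as well, so the rise was not particular to the partners. Sall4, a zinc-finger factor of pluripotent cells that binds NuRD, read 11323 and 11804 in Suz12KO against 8313 and 8854 in WT (log2 fold change 0.43, SE 0.06, limma adjusted p = 0.0024). Its paralog Sall1 read 1763 and 2025 in Suz12KO against 774 and 822 in WT (1.23, SE 0.14, adjusted p = 5.6e-04). Zfp296, another zinc-finger partner, read 1322 and 1377 in Suz12KO against 834 and 771 in WT and rose by 0.74 (SE 0.14, adjusted p = 0.0111). For all 3 the arrays of the genotypes did not overlap, as was so for 52.9% of all tested genes (29.0% higher). Centring ended the call of Sall4 (0.26, adjusted p = 0.0724), and so did averaging its probe sets (0.39, adjusted p = 0.0977), while Zfp296 lost its call without WT replicate 2 (adjusted p = 0.0590).

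Zmynd8, a chromatin reader that recruits NuRD, was higher on its brightest probe set but not on the next ones. The brightest read 2516 and 2451 in Suz12KO against 1846 and 1770 in WT (0.45, adjusted p = 0.0191), whereas 1426614_at read 817 and 725 in Suz12KO against 1700 and 1767 in WT (-1.15, adjusted p = 0.0014, each probe set tested on its own). Another, 1429415_at, was also lower (843 and 953 in Suz12KO, 1186 and 1484 in WT, -0.56), without passing. Averaging all Zmynd8 probe sets gave -0.83 (adjusted p = 0.0602), so no direction can be given for the gene. The call on the brightest was also lost after centring (0.29, adjusted p = 0.128), without Suz12KO replicate 1 and without either WT array (adjusted p 0.0580 to 0.104).

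**Figure D3:**
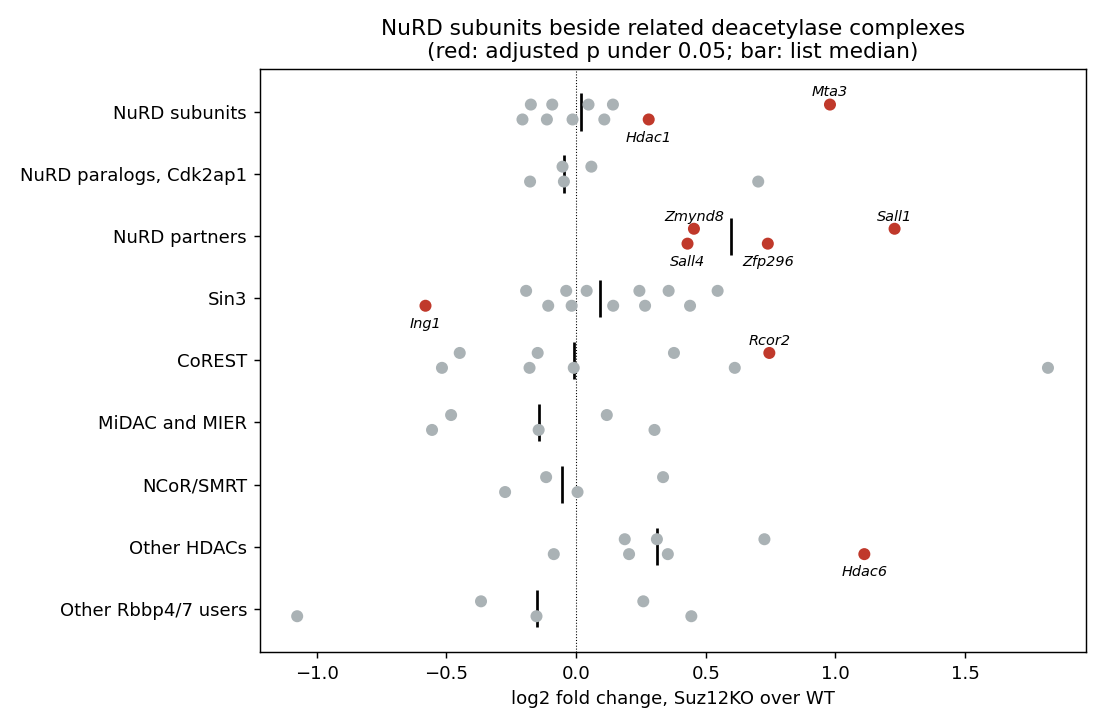
Log2 fold change of Suz12KO over WT for the tested genes of NuRD and 8 related lists, each gene by its brightest probe set. Red points passed an adjusted p under 0.05 and are named, and grey points did not. Black bars are list medians, 0.02 for the NuRD subunits and 0.60 for the NuRD partners. The partners include Zmynd8, which another of its probe sets read lower.

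Complexes that share Hdac1, Hdac2, Rbbp4 or Rbbp7 with NuRD were read together with NCoR/SMRT, the remaining deacetylases, and the NuRD paralogs and partners. Over these 8 lists, 51 genes were tested and had a median log2 fold change of 0.12, against 0.04 for all tested genes. Of the 51, 6 were higher, beside 4.48% of all genes, and 1 was lower, beside 5.50%, and 4 of the 6 higher were the NuRD partners. At an unadjusted p under 0.05, 12 were higher and 8 lower, beside 11.9% and 11.4% of all genes. These shares are the background for each list that follows, and with 4 to 12 genes in a list a count of 0 calls is close to what they give. In the Sin3 list 0 of 12 passed as higher, with 3 higher and 1 lower at an unadjusted p under 0.05. The 1 lower was Ing1, a reader of methylated histone H3, which also passed the adjusted test (1276 and 1136 in Suz12KO against 1805 and 1812 in WT, -0.58, SE 0.12, adjusted p = 0.0167). Other Ing1 probe sets above the spikes gave -0.15 and 0.52 and did not pass, and averaging brought the gene to -0.0034. The Ing1 call was lost without Suz12KO replicate 2 and without either WT array (adjusted p 0.0558 to 0.0884).

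Of 9 CoREST genes, Rcor2, the form of this corepressor prominent in embryonic stem cells, was higher, at 2129 and 2952 in Suz12KO against 1414 and 1568 in WT (0.75, SE 0.15, adjusted p = 0.0147), though not without Suz12KO replicate 2 (0.51, adjusted p = 0.0545) or with averaged probe sets (adjusted p = 0.0520). At an unadjusted p under 0.05, 2 CoREST genes were higher and 2 lower. None of the 5 MiDAC and MIER genes or of the 4 NCoR/SMRT genes tested passed, with 1 in each list lower at an unadjusted p under 0.05 (11.4% of all genes). Among 7 further deacetylases, the largely cytoplasmic tubulin deacetylase Hdac6 rose. It read 3138 and 3256 in Suz12KO against 1500 and 1442 in WT (1.11, SE 0.10, adjusted p = 1.3e-04), and this call held without any 1 of the arrays. Of the other 5 users of Rbbp4 or Rbbp7, in chromatin assembly, nucleosome sliding and histone acetylation, 0 passed in either direction. At an unadjusted p under 0.05, 2 of these 5 were higher and 2 lower, shares above the 11.9% and 11.4% of all genes.

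Genes that NuRD is known to hold down in mouse embryonic stem cells read higher in Suz12KO, of which 3 of 4 passed, beside 4.48% of all genes. These genes too were chosen with earlier results of these data known, and the rise was not particular to this list. All 10 checked markers of embryonic stem cells, with Zfp42 among them, were called higher too. Klf4 read 3247 and 3330 in Suz12KO against 750.5 and 842 in WT (2.03), Tbx3 read 1227 and 1544 in Suz12KO against 215 and 196 in WT (2.65), and Zfp42, which encodes Rex1, read 2691 and 2473 in Suz12KO against 1740 and 1997 in WT (0.47, adjusted p = 0.0280). Klf5 had a log2 fold change of 0.22 and did not pass (adjusted p = 0.0848). The Tbx3 call was lost with averaged probe sets (1.98, adjusted p = 0.0542), and that of Zfp42 after centring (0.30, adjusted p = 0.144), with averaged probe sets (adjusted p = 0.0585), and without Suz12KO replicate 1 (adjusted p = 0.112) or WT replicate 1 (adjusted p = 0.154). The part of NuRD transcript levels in these values was not tested.

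The level of the whole comparison depends on how the arrays are scaled. Under centring, all tested genes had a median log2 fold change of -0.13, against 0.04 as deposited, and 19.1% of all calls were higher, against 44.9% as deposited. Set against those medians, Mta3 was the NuRD subunit that passed in each scaling, at 0.98 as deposited, 1.02 under quantile normalization and 0.81 after centring. Hdac1 passed in the first and second, and Rbbp4 in the last.

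**Figure D4:**
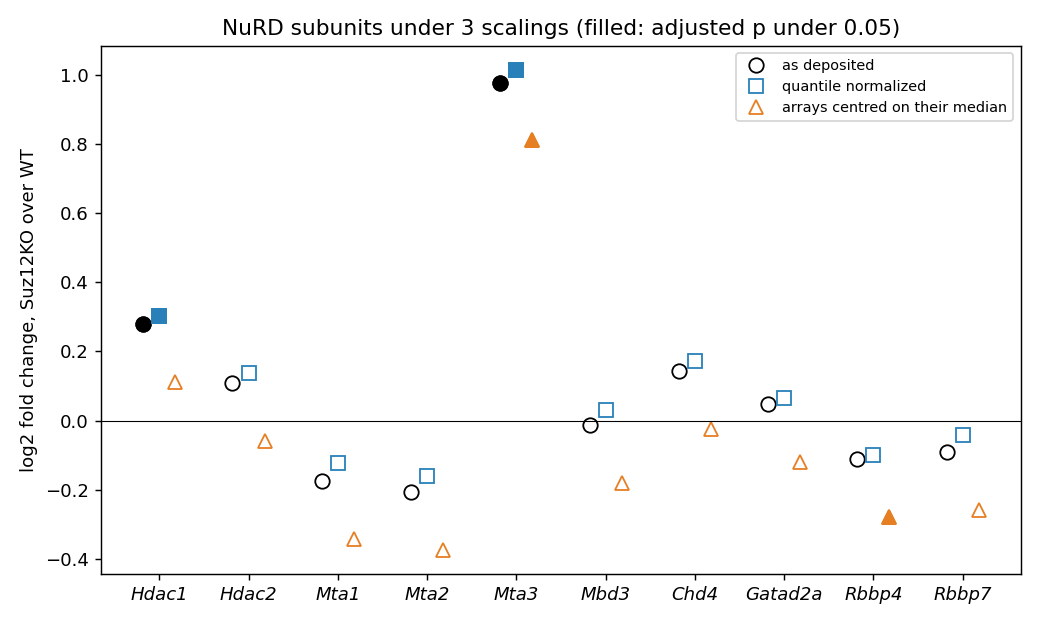
Log2 fold change of Suz12KO over WT for the 10 NuRD subunits with the arrays as deposited (circles), quantile normalized (squares) and centred on their medians (triangles). Filled symbols passed an adjusted p under 0.05. Mta3 is filled throughout (0.98, 1.02 and 0.81), while Hdac2, Chd4 and Gatad2a cross 0 under centring.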

How the data were processed

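One deposited table was used, holding a linear intensity (probe set signal) for 45101 probe sets on 4 arrays. The sources used here do not name the software behind it. Each array had a mean of 500.003 once the lowest and highest 2% of values were removed, which shows scaling before deposit, so nothing more was normalized and a shift of most genes together would not be seen. The number of arrays limits the precision.

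Names came from the platform annotation: outside the controls, 34945 probe sets carried 1 symbol, and those with several (932) or without any were not used. For each of 18193 genes the probe set with the highest mean of log2(signal + 16) was kept, and the dimmest genes, below percentile 30, were dropped. Differences, Suz12KO minus WT, were tested with limma 3.58.1 under R 4.3.3: lmFit, eBayes with trend, two-sided p-values, Benjamini-Hochberg over the 12735 genes left, and a call below 0.05. A second fit, filtered likewise, treated 24461 probe sets one by one. Intervals (95%) are unadjusted. For a genotype whose arrays did not exceed the brightest of 27 bacterial spike probe sets, a lower limit of the fold was computed. The code was tested on simulated data.

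Members, related lists and the naming rule were chosen with earlier results of these data known. The rule named all members and probe sets, Suz12, Mbd2, Gatad2b, Chd3, Chd5, Cdk2ap1, Sall4, each related gene past the test, and Klf4, Klf5, Tbx3 and Zfp42. Of 58 related genes, 52 had a usable probe set and 51 were tested. Promoter sequences are from RefSeq (GRCm38.p6). The alternatives changed the pseudocount (1, 64), the scaling (quantile, median centring), the filter (none, percentile 50), the probe sets of a gene (mean, or without s, x and a suffixes), eBayes (no trend, robust), the replicate block and the arrays (each left out). Plots used matplotlib 3.10.9 (Python 3.11.15).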

Additional observations from a re-analysis of the deposited data

How the results depend on the processing

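With 2 arrays a genotype, small changes such as that of Hdac1 turn on the settings. The alternatives for the filter, eBayes and the replicate block leave each log2 fold change as it was. A kept direction in those alternatives was therefore fixed in advance. Mta3 kept its direction in all 15 alternatives and lost its call in 2 of them, without the trend and with averaged probe sets. The count of NuRD members called higher, 2 as reported, was 1 after centring, 1 without a filter, 0 with averaged probe sets, 0 without the trend, and 1 whichever array was left out. The count of members called lower was 1 after centring and 0 in the other alternatives. The median log2 fold change of the members was -0.15 after centring and -0.056 with averaged probe sets, and ran from -0.034 to 0.0091 with an array left out. The count of NuRD probe sets called higher was 1 after centring, without a filter and among probe sets without a suffix, 0 without the trend, and 1 whichever array was left out, but 3 under quantile normalization, with the filter at percentile 50 and with the replicate block. The count of those called lower was 5 after centring and 0 to 1 with an array left out. Of the other deacetylase complex genes, 3 were called higher with averaged probe sets and 0 without the trend, and 7 were called lower after centring, 0 without suffixed probe sets and without the trend, and 0 to 2 with an array left out. After centring, 1660 of all 24461 tested probe sets and 1243 of all 12735 tested genes were called lower, against 977 and 700 as deposited. The cause of these changes in counts was not tested.

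Deviations of same-numbered arrays from their genotype means correlated at 0.0154 across genes, which does not show that the replicate numbers pair the arrays. With the replicate block, 3 NuRD probe sets were called lower. They were Chd4 1438476_a_at (limma adjusted p = 0.0213) and Rbbp4 1454875_a_at and 1454791_a_at (adjusted p 0.0100 and 0.0256). In this setting 1531 of all 24461 tested probe sets were called lower, against 977 without the block. Of the other deacetylase complex genes, 12 were called higher and 5 lower. Among all 12735 tested genes these calls numbered 1016 and 1082, against 570 and 700 without the block.

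Of 577 values for single genes and probe sets under the alternatives, 489 kept direction and call, 47 lost a call, 15 gained one and 26 changed sign. After centring, Hdac2 was at -0.059, its probe set 1449080_at at -0.086, Chd4 at -0.025, Gatad2a at -0.12 and Mbd2 at -0.11, and under quantile normalization Mbd3 was at 0.029. With averaged probe sets, Chd4 was at -0.73, Mbd2 at -0.25 and Zmynd8 at -0.83, and without suffixed probe sets Chd4 was at -0.38, Rbbp4 at 0.19 and Ing1 at 0.52. With an array left out, log2 fold changes that changed sign ran from -0.080 to 0.052 for Mbd3, from -0.034 to 0.32 for Chd4, from -0.014 to 0.13 for Mbd2, from -0.22 to 0.13 for Gatad2b and from -0.24 to 0.13 for Chd3. Among single probe sets they ran from -0.069 to 0.23 for Hdac2 1449080_at, from -0.0025 to 0.77 for Mta3 1443350_at, from -0.12 to 0.59 for Gatad2a 1445239_at, from -0.23 to 0.043 for Gatad2a 1451197_s_at, from -0.041 to 0.41 for Gatad2a 1451198_at and from -0.77 to 1.15 for Rbbp4 1456260_at. None of the values that changed sign passed the test.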
